A study of Mus musculus with 24 samples.

Results

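Cytosolic ribosomal proteins are the protein parts of the ribosome that works in the cytosol, as opposed to the separate set used inside mitochondria. The genes were taken by name from the deposited table of counts: symbols made of Rpl or Rps and a number, with the usual suffixes, together with Rpsa, Rplp0, Rplp1 and Rplp2, leaving out pseudogene names that end in -ps. By that rule 87 of the 46078 genes in the table were members, and 81 of them passed a minimum of 0.5 CPM (counts relative to the size of the library) in at least 6 of the 24 libraries. The 81 were 31 small subunit genes, 45 large subunit genes and 5 close relatives (paralogs) of standard subunit genes, Rpl3l, Rpl22l1, Rps27l, Rpl7l1 and Rps4l. The lowest member inside the minimum was Rpl24, with 1254 counts in all and over 0.5 CPM in 23 libraries. Just outside it were Rpl39l, with 55 counts in all and over 0.5 CPM in 4 libraries, and Rps3a3, with 58 counts and over 0.5 CPM in 3 libraries. Rps12l2 had 25 counts and Rps3a2 had 7, while Rpl10l and Rps12l1 had 0 counts in all 24 libraries. The name rule does not take in Fau, a small subunit gene that is described with the translation genes.

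Polyadenylated RNA was sequenced from the apex of the ventricles of 24 male C57BL/6 mice aged 10 weeks, with the series dated to day 5 in its title. The study set hearts with a diphtheria toxin injury against uninjured hearts, with and without pyridostigmine, a drug that blocks the enzymes that break down acetylcholine. DTR_PBS hearts (n = 6) were DTR mice with toxin-mediated injury given the vehicle PBS, and WT_PBS hearts (n = 6) were wild-type mice without toxin given PBS. DTR_PYR hearts (n = 6) were DTR mice with the same injury given pyridostigmine (PYR), and WT_PYR hearts (n = 6) were wild-type mice without toxin given pyridostigmine. DTR is the usual short form for the diphtheria toxin receptor, and the labels do not say in which cells it was made. Genotype and toxin changed together, so their parts in a difference cannot be told apart, and "injury" below means both.

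A ribosome is built from a small subunit, which holds the messenger RNA and reads its codons, and a large subunit, which joins amino acids into protein. Nearly all of their proteins are needed in one copy each, and cells usually make them in step, because unmatched ribosomal proteins are degraded. Their messenger RNAs begin with a cytosine followed by an unbroken stretch of pyrimidines (C or T in DNA letters), the terminal oligopyrimidine or TOP motif, through which growth signals such as the kinase mTORC1 control their translation. Striated muscle adds a variation of its own: cardiac and skeletal muscle make Rpl3l, a close copy of Rpl3 that takes its place in the large subunit, and Rpl3l is known to decline where muscle grows or is damaged.

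Libraries held 1877914 to 37842245 counts. In the DTR_PYR group, libraries 4, 5 and 6 stood apart from libraries 1, 2 and 3 and near the WT hearts. Hbegf, the mouse gene for the growth factor that serves as the toxin's receptor in sensitive species, had 19.3, 23.3 and 25.8 CPM in DTR_PYR 4 to 6, against 118 to 172 CPM in DTR_PYR 1 to 3, 105 to 167 CPM in DTR_PBS and 18.3 to 26.8 CPM in all 12 WT libraries. Numbers of members and of genes in the lists below called for injury under pyridostigmine are therefore also given without these libraries. The same holds for the injury differences printed for single members under pyridostigmine. This choice was made after the values of these libraries were seen. Calls on cell markers and differences of single genes of the lists are given with all libraries. So are the differences of single genes between DTR_PYR and DTR_PBS hearts. As a check of the labelled tissue, all 10 ventricular cardiomyocyte markers were detected in every group. The animal tags in the titles end in U or V, with no meaning given. Each group holds both but unevenly: each WT group has 4 U and 2 V libraries, and each DTR group 2 U and 4 V. Values within each letter are printed beside the main injury results. For each treatment they rest on 2 injured hearts within U and on 2 uninjured hearts within V. The p-values measure the spread between animals of a group, as each title carries its own tag.

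To show what the members share in sequence, the reference windows around their annotated transcription starts were searched for a TOP-like run, here an unbroken run of C and T that begins with C, is at least 8 bases long and begins within 20 bases on either side of the annotated start, on the transcribed strand. RefSeq windows of the build GRCm38.p6 were available for 62 of the 87 members, and 31 of these 62 genes (50%) had such a run in at least 1 window, against 16.6% of all 27025 genes with a window. Counted by window, 43.2% of the members' 74 windows held a run, against 14.5% of 32851 windows. A match of letters is a description and not a mapped start. The windows printed here reach from 15 bases before the annotated start to 15 bases from it onward, read 5′ to 3′ on the gene's own strand, and capitals mark the longest run of C and T beginning with C inside the window where it has at least 5 bases. Rpl15 and Rps10 are shown as members with a long run, Rps26 and Rpl12 as members with large increases in injured hearts, and the others because they belong to the paralog pairs compared below.
Rpl15 (chr14:18270972-18271001, minus strand): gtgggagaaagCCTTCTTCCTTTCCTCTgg
Rps10 (chr17:27635230-27635259, minus strand): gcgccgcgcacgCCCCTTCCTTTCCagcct
Rps26 (chr10:128626492-128626521, minus strand): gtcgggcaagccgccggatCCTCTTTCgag
Rpl12 (chr2:32961697-32961726, plus strand): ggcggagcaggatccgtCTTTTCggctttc
Rps27 (chr3:90213634-90213663, minus strand): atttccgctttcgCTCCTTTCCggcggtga
Rps27l (chr9:66946071-66946100, plus strand): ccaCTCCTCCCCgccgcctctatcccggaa
Rpl22 (chr4:152324421-152324450, plus strand): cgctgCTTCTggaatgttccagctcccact
Rpl22l1 (chr3:28805493-28805522, plus strand): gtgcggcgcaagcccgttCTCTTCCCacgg
Rpl3l (chr17:24727811-24727840, plus strand): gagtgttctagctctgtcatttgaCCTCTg
Rpl7l1 (chr17:46782642-46782671, minus strand): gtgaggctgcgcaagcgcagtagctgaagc

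The longest run was 17 bases in the Rpl15 window, 13 in Rps10, 9 in both Rps27 and Rps27l, and 8 in Rps26 and Rpl22l1. It was 6 bases in Rpl12, 5 in Rpl22 and Rpl3l, and no more than 3 in Rpl7l1, so the relatives of standard subunit genes did not share one type of start in these windows. The change of the members with injury was set beside the run as a description. Under PBS the median log2 fold change (the difference between groups on the log2 scale, tested below) was 0.48 over the 31 tested members with a run and 0.39 over the 29 tested members without one, and under pyridostigmine it was 0.38 with a run and 0.32 without.

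Levels per length were compared as CPM divided by the median length of a gene's protein-coding transcripts, averaged over all 24 libraries. They ranged from 4.29 to 837 CPM per kb over the 81 genes, with a median of 160 CPM per kb. The highest were Rplp1, a protein of the stalk that recruits translation factors, at 837 CPM per kb, Rps15 at 792 CPM per kb and Rpl41, the shortest ribosomal protein, at 746 CPM per kb. The lowest were Rpl24 at 4.29 CPM per kb, Rpl22l1 at 9.30 CPM per kb and Rps15a at 11.1 CPM per kb, the last with an annotated median transcript of 5130 bases. Ribosomal protein genes have many processed copies in the genome, and the labels do not say how reads that fit several copies were counted, so a low level of a standard subunit gene is uncertain. Rows with -ps names, the named pseudogenes, held between 0.000636% and 0.00270% of a library's counts.

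The share of a library's counts that fell on the 87 genes was higher in injured hearts. It was 1.52 to 1.94% in DTR_PBS hearts, with a mean of 1.78 ± 0.17% (SD, n = 6), and 0.772 to 1.27% in WT_PBS hearts, with a mean of 1.04 ± 0.17% (SD, n = 6), so these groups did not overlap. In DTR_PYR hearts it was 1.80 to 2.32% in libraries 1 to 3 and 1.01 to 1.19% in libraries 4 to 6, with a mean of 1.54 ± 0.52% (SD, n = 6), against 0.998 to 1.29% in WT_PYR hearts, with a mean of 1.09 ± 0.12% (SD, n = 6). All of DTR_PYR 1 to 3 were above every WT library, and DTR_PYR 4 to 6 lay within the WT_PYR range. Mitochondrially encoded genes took 5.41 to 9.97% of counts in DTR_PBS and 6.01 to 25.6% in WT_PBS, and this moves every other share. Without those counts the members' share was 1.92 ± 0.20% in DTR_PBS and 1.20 ± 0.11% in WT_PBS hearts (SD, n = 6 each).

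**Figure D1:**
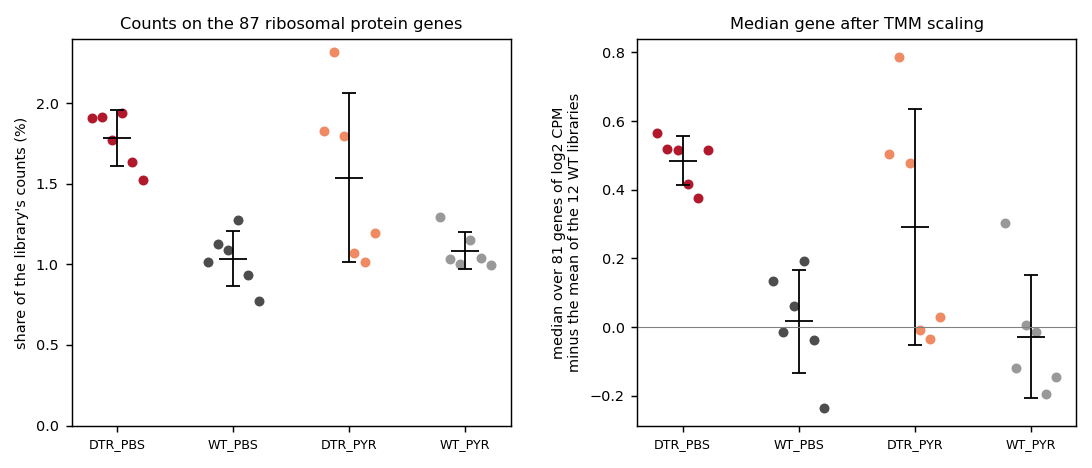
Left, the share of each library's counts that fell on the 87 ribosomal protein genes, in percent; right, the median over the 81 tested genes of log2 CPM minus the mean of the 12 WT libraries, after scaling. Points are libraries 1 to 6 of a group from left to right, with the group mean and SD. DTR_PYR 1 and 3 lie with DTR_PBS, and DTR_PYR 4 to 6 with the WT libraries. DTR_PYR 2 lies above every DTR_PBS library in both panels.

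In vehicle-treated hearts most ribosomal protein genes were higher with injury, and 1 was lower. Of the 81 genes tested, 44 rose in DTR_PBS relative to WT_PBS hearts, 1 fell (Rpl3l) and 36 did not pass the test, by edgeR's quasi-likelihood test at a Benjamini-Hochberg adjusted p under 0.05 over all 15456 genes. In that comparison 42.9% of all genes were called, 21.3% as higher and 21.6% as lower, beside 55.6% of the members called either way and 54.3% called higher. The median member had a log2 fold change of 0.44, a 1.35-fold difference, against a median of 0.01 over all genes tested. The estimate was positive for 78 of the 81 members, and the middle of the list, from the lower to the upper quartile, ran from 0.31 to 0.62. In 28 members every DTR_PBS library was above every WT_PBS library, and in 1 every DTR_PBS library was below, where 11.2% and 11% of all genes did the same. By subunit, 15 of 31 small subunit genes rose, with a median log2 fold change of 0.43, and 28 of 45 large subunit genes, with a median of 0.48; no member of either group fell. Within libraries tagged U the median member differed by 0.48 (log2, DTR_PBS minus WT_PBS) and within libraries tagged V by 0.52. Scaling by total counts moved the median of all genes to 0.39 and that of the members to 0.81, which leaves the median member 0.42 above the median gene. RNA from the whole apex was measured, so a change in the cells present and a change in RNA per cell cannot be told apart.

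The size of the change was also set beside the length and the level of each gene. Across the 81 members under PBS, Pearson's r of the log2 fold change with log2 transcript length was 0.07 and with log2 mean CPM it was -0.08. For injury under pyridostigmine these were 0.09 and -0.27. The values are given as descriptions of genes that share the same libraries.

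**Figure D2:**
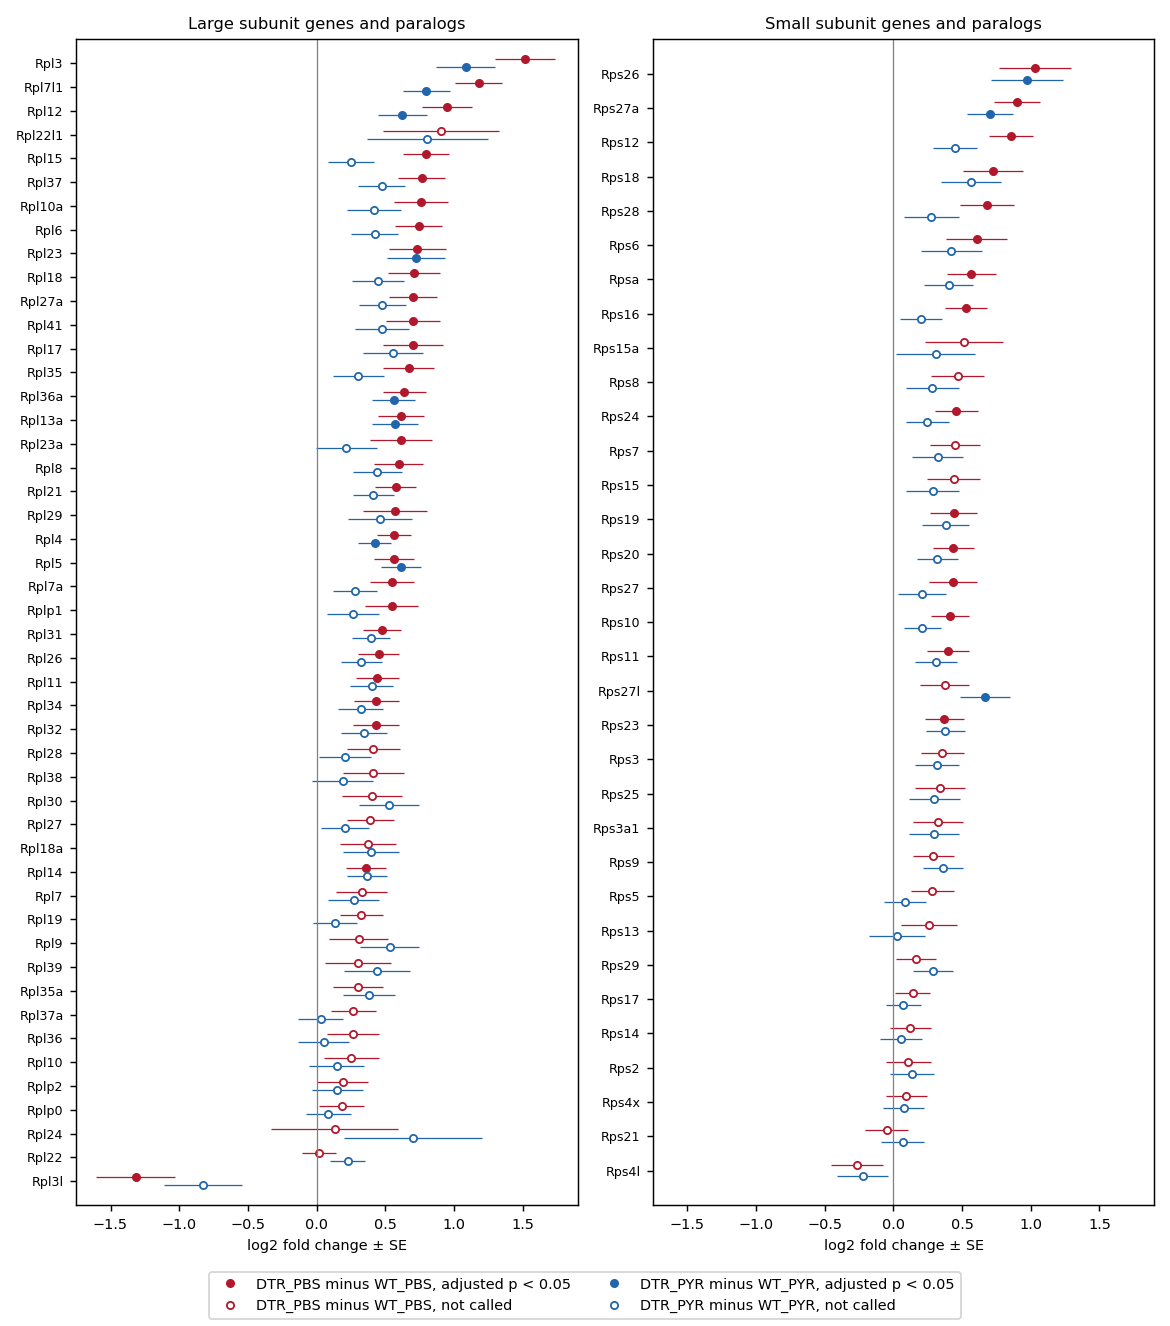
Log2 fold change with its standard error for all 81 genes tested, in the order of the change under PBS; red is DTR_PBS minus WT_PBS, blue is DTR_PYR minus WT_PYR, and filled points have an adjusted p under 0.05. Rpl3 is at the top of the large subunit panel with 1.52 under PBS and 1.08 under pyridostigmine, and Rpl3l is at the bottom with -1.32 and -0.82.

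Rpl3 (chr15:80077794-80091868 in the deposited GRCm38 coordinates) encodes a large subunit protein that reaches into the site where peptide bonds form. It had 109 to 229 CPM in DTR_PBS hearts, with a median of 131, and 46.1 to 68.3 CPM in WT_PBS hearts, with a median of 49.4. The groups did not overlap, and DTR_PBS 1 and 2, at 229 and 176 CPM, were the highest of all libraries. Rpl3 rose by 1.52 on the log2 scale (SE 0.22, adjusted p = 2.37e-05), the largest change among the standard subunit genes. The difference was 1.73 within U libraries and 1.41 within V libraries.

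Other large subunit genes rose by less. Rpl12, which forms the base of the stalk, had 145 to 199.9 CPM in DTR_PBS hearts, with a median of 175, and 71.9 to 115 CPM in WT_PBS hearts, with a median of 89.8. It rose by 0.95 (SE 0.18, adjusted p = 1.94e-04), with no overlap between the groups. Rpl15, a core protein of the large subunit, had 88.9 to 114 CPM in DTR_PBS and 45.4 to 70.0 CPM in WT_PBS hearts and rose by 0.80 (SE 0.17, adjusted p = 5.29e-04). Rpl4, which lines the tunnel through which the new protein leaves, had 469 to 577 CPM in DTR_PBS and 333 to 386 CPM in WT_PBS hearts and rose by 0.56 (SE 0.12, adjusted p = 7.32e-04). Rpl5 and Rpl11 travel together with a small ribosomal RNA and, outside ribosomes, bind Mdm2, the ubiquitin ligase of p53. Rpl5 had 96.4 to 140.0 CPM in DTR_PBS hearts, with a median of 108, and 66.3 to 89.7 CPM in WT_PBS hearts, with a median of 72.7, without overlap. It rose by 0.56 (SE 0.14, adjusted p = 0.0027). Rpl11 had 76.1 to 103 CPM in DTR_PBS and 41.3 to 84.5 CPM in WT_PBS hearts, overlapping ranges, and rose by 0.44 (SE 0.16, adjusted p = 0.0255), a call that was lost in 4 of 12 fits that each left out 1 library. Rpl24 was too low to judge, at 1.19 to 8.22 CPM in DTR_PBS and 1.14 to 6.05 CPM in WT_PBS hearts, with a log2 difference of 0.13 (SE 0.47, adjusted p = 0.847).

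The stalk genes were uneven. Rplp1 had 354 to 603 CPM in DTR_PBS hearts, with a median of 507, and 229 to 457 CPM in WT_PBS hearts, with a median of 334, and rose by 0.55 (SE 0.19, adjusted p = 0.0229), though the call was lost in 3 of 12 fits that each left out 1 library. Rplp0, which anchors the stalk to the ribosome and is often used to scale gene expression, had 465 to 624 CPM in DTR_PBS and 352 to 631 CPM in WT_PBS hearts, a log2 difference of 0.18 (SE 0.16, adjusted p = 0.385). Rplp2, the partner of Rplp1, had 177 to 337 CPM in DTR_PBS and 143 to 319 CPM in WT_PBS hearts, a difference of 0.19 (SE 0.19, adjusted p = 0.433). Both pairs of ranges overlapped widely. Whether the stalk genes differed from each other in their change was not tested.

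Among small subunit genes the largest rises were those of Rps26, Rps27a and Rps12. Rps26, which sits where the messenger RNA leaves the small subunit, had 216 to 366 CPM in DTR_PBS hearts, with a median of 299, and 96.0 to 175 CPM in WT_PBS hearts, with a median of 162. It rose by 1.03 (SE 0.26, adjusted p = 0.00262) without overlap. Rps27a is made as a fusion with ubiquitin, the protein tag for degradation, which is then cut off. It had 114 to 173 CPM in DTR_PBS and 65.6 to 84.5 CPM in WT_PBS hearts and rose by 0.90 (SE 0.17, adjusted p = 1.82e-04), again without overlap. Rps12 had 172 to 266 CPM in DTR_PBS and 103 to 159 CPM in WT_PBS hearts and rose by 0.86 (SE 0.16, adjusted p = 1.90e-04), and these ranges too were apart. Rpsa, a small subunit protein that is also known as the laminin receptor precursor, had 191 to 246 CPM in DTR_PBS and 117 to 174 CPM in WT_PBS hearts and rose by 0.57 (SE 0.18, adjusted p = 0.0117). Rps15, the most abundant small subunit gene per length, had 301 to 576 CPM in DTR_PBS and 228 to 463 CPM in WT_PBS hearts, a log2 difference of 0.44 (SE 0.19, adjusted p = 0.0667). Rps15a had 52.8 to 138 CPM in DTR_PBS and 42.1 to 86.9 CPM in WT_PBS hearts, a difference of 0.52 (SE 0.28, adjusted p = 0.148).

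**Figure D3:**
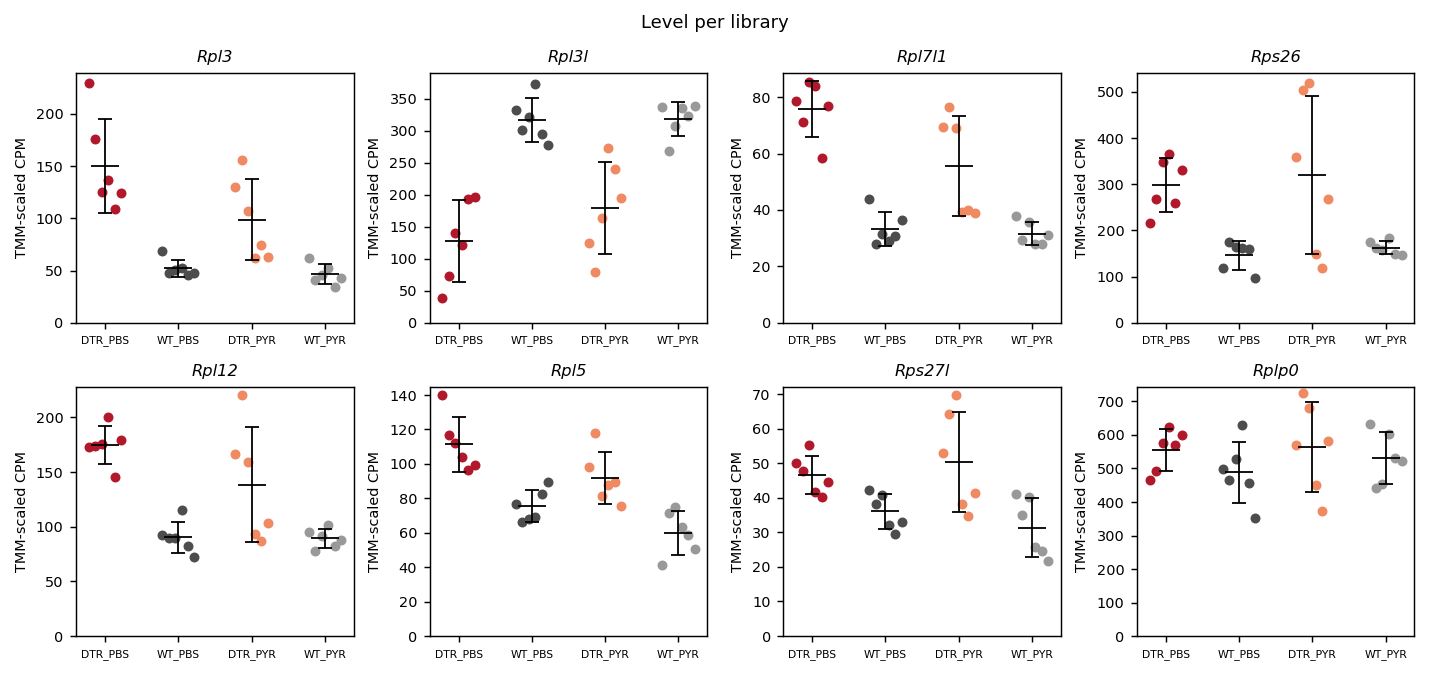
TMM-scaled CPM of 8 genes in each library, with libraries 1 to 6 of a group from left to right and the group mean and SD. Rpl3 and Rpl3l move in opposite directions between DTR_PBS and WT_PBS, Rplp0 overlaps between all groups, and in Rpl7l1 the libraries DTR_PYR 4 to 6 lie apart from DTR_PYR 1 to 3.

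Rpl3l (chr17:24727820-24736143), the muscle copy of Rpl3, went the other way. It had 38.5 to 197 CPM in DTR_PBS hearts, with a median of 131, and 277 to 373 CPM in WT_PBS hearts, with a median of 311. The groups did not overlap, and DTR_PBS 1 and 2, the highest libraries for Rpl3, were the lowest for Rpl3l at 38.5 and 72.4 CPM. Rpl3l fell by 1.32 on the log2 scale (SE 0.29, adjusted p = 7.15e-04), by 2.24 within U libraries and by 1.09 within V libraries. Per length, Rpl3l stood at 106 CPM per kb and Rpl3 at 111 CPM per kb in DTR_PBS hearts, against 263 CPM per kb for Rpl3l and 38.7 CPM per kb for Rpl3 in WT_PBS hearts. The near equality in the injured hearts is one of group means. By counts Rpl3 was ahead in DTR_PBS 1 and 2 and Rpl3l in DTR_PBS 5 and 6. DTR_PBS 3 and 4 were near even, with a log2 ratio of Rpl3l to Rpl3 of 0.17 and -0.18. The muscle copy was ahead in every uninjured heart. Rpl3l is a cardiomyocyte gene. The summed level of the 10 ventricular cardiomyocyte markers was 27203 to 76923 CPM in DTR_PBS and 95683 to 102567 CPM in WT_PBS hearts. Of the 10, 6 were called lower under PBS and none was at 0. Under pyridostigmine, with all libraries, 1 of the 10 was called lower. The sum was then 41110.5 to 90985 CPM in DTR_PYR and 96675 to 108798 CPM in WT_PYR hearts. The part of these marker changes in the fall of Rpl3l was not tested.

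The ratio of each paralog to its standard partner was taken within each library, where scaling between libraries drops out, and each comparison was tested by an exact permutation of the 12 libraries (two-sided), with p-values adjusted over 20 tests. The log2 ratio of Rpl3l to Rpl3 was -2.57 to 0.83 in DTR_PBS hearts, mean -0.39 ± 1.31 (SD, n = 6), and 2.28 to 2.82 in WT_PBS hearts, mean 2.60 ± 0.18 (SD, n = 6). The difference was -3.00 (exact permutation p = 0.00216, the smallest that 6 against 6 libraries can give; adjusted p = 0.0144). Under pyridostigmine the ratio was -0.97 to 2.14 in DTR_PYR hearts, mean 0.84 ± 1.20, and 2.45 to 3.24 in WT_PYR hearts, mean 2.80 ± 0.27 (SD, n = 6 each), a difference of -1.96 (exact permutation p = 0.00216, adjusted p = 0.0144). Every injured heart was below every uninjured heart of the same treatment, DTR_PYR 4 to 6 included. Without DTR_PYR 4 to 6 the difference was -2.94. Between DTR_PYR and DTR_PBS hearts the ratio differed by 1.23, which did not pass (exact permutation p = 0.121, adjusted p = 0.209), and by 0.26 without DTR_PYR 4 to 6.

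Rpl7l1, a relative of Rpl7 known for its place in precursors of the large subunit rather than in finished ribosomes, rose by 1.18 (SE 0.17, adjusted p = 2.67e-05). It had 58.4 to 85.2 CPM in DTR_PBS hearts, with a median of 77.8, and 28.0 to 43.8 CPM in WT_PBS hearts, with a median of 31.2, without overlap. Rpl7 itself had 86.5 to 176 CPM in DTR_PBS and 68.5 to 129 CPM in WT_PBS hearts, a log2 difference of 0.33 (SE 0.18, adjusted p = 0.155). The log2 ratio of Rpl7l1 to Rpl7 was 0.88 higher in DTR_PBS than in WT_PBS hearts, with every injured heart above every uninjured one (exact permutation p = 0.00216, adjusted p = 0.0144). Under pyridostigmine it was 0.50 higher, which did not pass after adjustment (exact permutation p = 0.039, adjusted p = 0.156), and 0.80 higher without DTR_PYR 4 to 6, a value with no test.

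The other pairs did not pass after adjustment. Rps27l, a target of p53 and a relative of the standard small subunit gene Rps27, had 40.3 to 55.4 CPM in DTR_PBS and 29.6 to 42.4 CPM in WT_PBS hearts, a log2 difference of 0.37 (SE 0.18, adjusted p = 0.0948). Rps27 had 105 to 146 CPM in DTR_PBS and 67.1 to 110.0 CPM in WT_PBS hearts and rose by 0.43 (SE 0.17, adjusted p = 0.0468), a call lost in 8 of 12 fits that each left out 1 library. Rpl22l1, which is known to be held in check by its partner Rpl22, had 2.66 to 14.0 CPM in DTR_PBS and 1.93 to 5.66 CPM in WT_PBS hearts, a difference of 0.91 (SE 0.42, adjusted p = 0.0875), and Rpl22 differed by 0.02 (SE 0.12, adjusted p = 0.929). Rps4l, a copy of Rps4x, differed by -0.26 (SE 0.19, adjusted p = 0.268), a sign that turned to 0.069 with total-count scaling, and Rps4x by 0.09 (SE 0.15, adjusted p = 0.647). Of the partners whose paralogs were too low to test, Rpl39 differed by 0.30 (SE 0.24, adjusted p = 0.323) and Rpl10 by 0.25 (SE 0.20, adjusted p = 0.323).

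**Figure D4:**
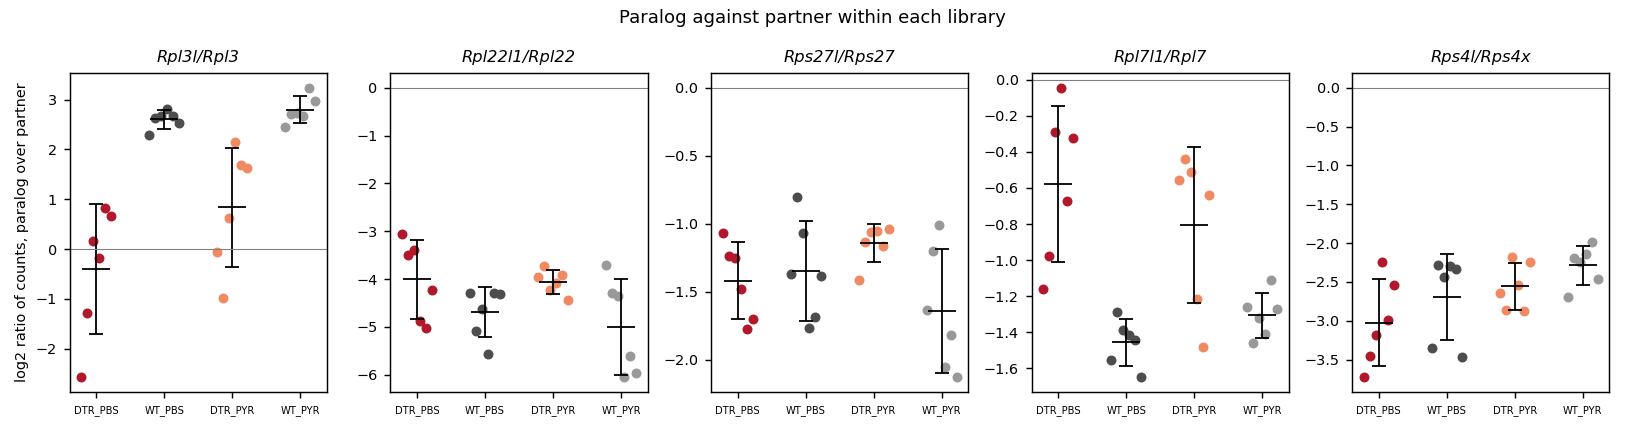
Log2 ratio of each paralog to its standard partner within each library, libraries 1 to 6 of a group from left to right, with the group mean and SD; each panel has its own vertical scale. For Rpl3l over Rpl3 the WT libraries lie between 2.28 and 3.24 and every DTR library lies below them.

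Under pyridostigmine fewer members were called with injury, and none as lower. In DTR_PYR relative to WT_PYR hearts 11 of 81 members rose and 0 fell, against 12.2% of all genes called, 8.06% as higher and 4.17% as lower. The median member had a log2 fold change of 0.32, against 0.04 over all genes, and 79 of the 81 estimates were positive. In 4 members every DTR_PYR library was above every WT_PYR library, where 2.19% of all genes were. The 11 genes were Rpl3, Rpl7l1, Rps26, Rpl23, Rps27a, Rps27l, Rpl12, Rpl5, Rpl13a, Rpl36a and Rpl4, and 10 of them, all but Rps27l, also rose under PBS, which is 90.9% of the 11 and 22.7% of the 44. The injury comparisons under PBS and under pyridostigmine use different hearts throughout, and across the 81 members Pearson's r between their log2 fold changes was 0.83. The shared calls and the r were not taken over all genes, so they are not read as particular to the members. With all libraries the change was the larger under PBS in 64 of the 81, and none of these differences passed the interaction test below. That order rests on DTR_PYR 4 to 6: without them the median member was at 0.60 under pyridostigmine, against 0.44 under PBS. Within U libraries, 2 of the injured hearts, the median member differed by 0.65, and within V libraries, which hold DTR_PYR 4 to 6, by 0.18. Without DTR_PYR 4 to 6, 50 members rose and 1 fell, where 33% of all genes were called, 17.5% as higher, and the median member differed by 0.60.

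Rpl3 had 130 to 156 CPM in DTR_PYR 1 and 2, 107 CPM in DTR_PYR 3 and 61.7 to 74.7 CPM in DTR_PYR 4 to 6, against 34.2 to 61.6 CPM in WT_PYR hearts. All 6 DTR_PYR libraries were above all WT_PYR libraries, though DTR_PYR 4 by little, and Rpl3 rose by 1.08 (SE 0.22, adjusted p = 0.00373), or by 1.501 without DTR_PYR 4 to 6. The difference was 1.61 within U and 0.78 within V libraries. Rpl3l had 79.6 to 164 CPM in DTR_PYR 1 to 3 and 195 to 273 CPM in DTR_PYR 4 to 6, against 268 to 338 CPM in WT_PYR hearts. Its log2 difference was -0.82 (SE 0.28, adjusted p = 0.0552), just outside the threshold. It passed with DESeq2 (adjusted p = 0.0313), and without DTR_PYR 4 to 6 it fell by 1.37 (adjusted p = 0.00317). Within letters it differed by -1.74 (U) and -0.43 (V). Rpl7l1 had 69.0 to 76.3 CPM in DTR_PYR 1 to 3 and 38.9 to 39.9 CPM in DTR_PYR 4 to 6, against 27.9 to 37.8 CPM in WT_PYR hearts, and rose by 0.80 (SE 0.17, adjusted p = 0.00574), or by 1.18 without DTR_PYR 4 to 6.

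Rpl5 had 75.7 to 118 CPM in DTR_PYR and 41.1 to 74.8 CPM in WT_PYR hearts, without overlap, and rose by 0.61 (SE 0.14, adjusted p = 0.00928), or by 0.73 without DTR_PYR 4 to 6. Of the members called under pyridostigmine it was one in which libraries 4 to 6 did not fall together at the low end: DTR_PYR 3 had 81.1 CPM, and DTR_PYR 4 and 5 had 87.9 and 89.2 CPM. Rps27a had 77.2 to 152 CPM in DTR_PYR and 46.0 to 82.6 CPM in WT_PYR hearts and rose by 0.70 (SE 0.17, adjusted p = 0.00966), or by 1.04 without those libraries. Rps26 had 359 to 519 CPM in DTR_PYR 1 to 3 and 119 to 269 CPM in DTR_PYR 4 to 6, against 148 to 184 CPM in WT_PYR hearts. It rose by 0.97 (SE 0.26, adjusted p = 0.0189), or by 1.504 without DTR_PYR 4 to 6. Rps27l had 34.9 to 69.8 CPM in DTR_PYR and 21.7 to 41.0 CPM in WT_PYR hearts, which overlap, and rose by 0.67 (SE 0.18, adjusted p = 0.0196), or by 0.99 without DTR_PYR 4 to 6. Rpl12 had 87.3 to 221 CPM in DTR_PYR and 78.1 to 102 CPM in WT_PYR hearts and rose by 0.62 (SE 0.18, adjusted p = 0.025), or by 1.03 without them. Single libraries decided several of these calls: those of Rpl12, Rps26 and Rps27l were lost in 3, 2 and 2 of 12 fits that each left out 1 library. The method mattered too. With limma voom Rpl12 and Rps26 missed the threshold (adjusted p = 0.0550 and 0.0529). In the edgeR fit of only the groups compared, Rpl12, Rps26 and Rps27l missed it (adjusted p = 0.0730, 0.0569 and 0.0627). The total of members called was 5 to 7 without DTR_PYR 1, 2 or 3 or WT_PYR 4, where 748 to 1112 of all genes were called. It was 21 to 24 without DTR_PYR 4, 5 or 6, where 2368 to 2707 of all genes were called. With all libraries 1891 of all genes were called.

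With all 6 DTR_PYR libraries, members that did not pass under pyridostigmine included the stalk genes and the partners of the paralogs; several of them passed without DTR_PYR 4 to 6. Rplp1 had 283 to 654 CPM in DTR_PYR and 307 to 478 CPM in WT_PYR hearts (log2 difference 0.26, SE 0.19, adjusted p = 0.369), Rplp0 372 to 726 CPM in DTR_PYR and 441 to 633 CPM in WT_PYR hearts (0.09, SE 0.16, adjusted p = 0.761), and Rplp2 180 to 327 CPM in DTR_PYR and 203 to 287 CPM in WT_PYR hearts (0.15, SE 0.19, adjusted p = 0.617). In all 3 stalk genes the DTR_PYR range reached both below and above the WT_PYR range. Rps12 had 123 to 239 CPM in DTR_PYR and 105 to 149.7 CPM in WT_PYR hearts (0.45, SE 0.16, adjusted p = 0.0639), Rpl11 had 53.8 to 104 CPM in DTR_PYR and 48.5 to 70.0 CPM in WT_PYR hearts (0.40, SE 0.16, adjusted p = 0.0908), and Rpl41 had 256 to 697 CPM in DTR_PYR and 282 to 380 CPM in WT_PYR hearts (0.48, SE 0.20, adjusted p = 0.103). Rpl41 had risen by 0.70 under PBS (SE 0.20, adjusted p = 0.00536), with 354 to 612 CPM in DTR_PBS and 199 to 384 CPM in WT_PBS hearts. The standard partners Rpl7, Rps27, Rpl22 and Rps4x differed by 0.27, 0.21, 0.23 and 0.07 between DTR_PYR and WT_PYR hearts, and the paralogs Rpl22l1 and Rps4l by 0.81 and -0.22, none past the threshold. Without DTR_PYR 4 to 6, by edgeR, Rpl41 rose by 0.82 (adjusted p = 0.00172), Rps12 by 0.76 (adjusted p = 6.80e-04), Rpl11 by 0.60 (adjusted p = 0.0125), Rps27 by 0.57 (adjusted p = 0.0108), Rplp1 by 0.56 (adjusted p = 0.0318) and Rpl22 by 0.42 (adjusted p = 0.0218). Rpsa, which differed by 0.40 with all libraries (adjusted p = 0.128), rose by 0.71 (adjusted p = 0.00466), and Rps15, at 0.29 with all libraries (adjusted p = 0.332), by 0.58 (adjusted p = 0.0298). Rplp0 and Rplp2 differed by 0.31 and 0.28 without those libraries, and Rpl7, Rps4x, Rpl22l1 and Rps4l by 0.37, 0.21, 1.07 and -0.09, none past the threshold. With all libraries and the tag letter as a covariate, Rpl11, Rpl41, Rps12 and Rpsa passed, with adjusted p-values of 0.0307, 0.0354, 0.0115 and 0.0466.

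Pyridostigmine itself gave no call among the members. Between DTR_PYR and DTR_PBS hearts edgeR called 0 of 81 members (and 0% of all genes), with 11 members at an unadjusted p under 0.05, where 19.4% of all genes were. The median member had a log2 fold change of -0.16, against -0.01 over all genes. It was 0.17 within U libraries, of 2 hearts a group, and -0.35 within V libraries, of 4 hearts a group. Without DTR_PYR 4 to 6 the median member's difference turned to 0.11, against -0.02 over all genes, with 0 members and 0% of all genes called. With limma voom 2 members (2.47%) were called, both lower, where 11.4% of all genes were called, and without DTR_PYR 2 edgeR called 7 (8.64%), all lower, where 15.6% of all genes were. The smallest p was that of Rpl15, with 49.8 to 90.3 CPM in DTR_PYR and 88.9 to 114 CPM in DTR_PBS hearts, ranges that overlap at their ends, and a log2 difference of -0.50 (SE 0.17, adjusted p = 0.149). Rpl3 differed by -0.61 (SE 0.22, adjusted p = 0.155) and Rpl3l by 0.50 (SE 0.28, adjusted p = 0.325). Between WT_PYR and WT_PBS hearts 0 members (and 0% of all genes) were called, with 5 members at an unadjusted p under 0.05, where 3.11% of all genes were; the median member differed by -0.01. For the interaction, the effect of the drug in injured hearts minus that in uninjured hearts, 0 members (and 0% of all genes) were called, with 1 at an unadjusted p under 0.05, where 7.96% of all genes were. It was Rpl15, at -0.55 (SE 0.24, adjusted p = 0.595). DESeq2 called 0 members in all 3 of these comparisons, and limma voom 0 in the last 2. A p that misses the threshold does not show that drug and vehicle acted alike.

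Genes that make ribosomes were described beside the ribosomal proteins, from lists chosen with earlier results of these data known. Their counts stand beside 21.3% of all genes higher and 21.6% lower under PBS, 8.06% and 4.17% under pyridostigmine, and 17.5% and 15.4% under pyridostigmine without DTR_PYR 4 to 6. Of 58 ribosome assembly factors, the proteins and enzymes that fold and trim ribosomal RNA in the nucleolus, 49 rose and 0 fell under PBS, with a median log2 fold change of 0.95, and 36 rose and 0 fell under pyridostigmine, with a median of 0.70. Without DTR_PYR 4 to 6 it was 48 higher and 0 lower, with a median of 0.97. Gnl3, the nucleolar protein nucleostemin, averaged 73.1 ± 14.2 CPM in DTR_PBS and 12.4 ± 3.3 CPM in WT_PBS hearts (SD, n = 6 each) and rose by 2.56 (SE 0.28, adjusted p = 5.82e-06). Nop58, a core protein of the particles that methylate ribosomal RNA, averaged 43.5 ± 16.6 CPM in DTR_PBS and 9.60 ± 3.94 CPM in WT_PBS hearts and rose by 2.19 (SE 0.29, adjusted p = 1.45e-05). Ddx21, an RNA helicase of the nucleolus, averaged 149.9 ± 21.8 CPM in DTR_PBS and 43.3 ± 6.4 CPM in WT_PBS hearts and rose by 1.79 (SE 0.23, adjusted p = 1.12e-05). Beside these, the ribosomal proteins moved by less, with a median of 0.44.

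Of 8 chaperones and modifiers of ribosomal proteins tested, 3 rose under PBS and 3 under pyridostigmine (4 without DTR_PYR 4 to 6), with 0 lower in any; with 8 genes, the counts say little beside the shares of all genes. Grwd1, whose counterpart in yeast is the chaperone of newly made Rpl3, averaged 50.8 ± 9.3 CPM in DTR_PBS and 17.01 ± 2.35 CPM in WT_PBS hearts and rose by 1.58 (SE 0.26, adjusted p = 6.69e-05). It rose by 1.27 under pyridostigmine (SE 0.26, adjusted p = 0.00444). The other 2 under PBS were Rps19bp1, a binding partner of Rps19, at 0.91 (SE 0.23, adjusted p = 0.0022), and Tsr2, which carries Rps26, at 0.71 (SE 0.20, adjusted p = 0.00594).

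Of 13 genes of RNA polymerase I and ribosomal DNA transcription, 5 rose and 0 fell under PBS, with a median log2 fold change of 0.26, and 3 rose under pyridostigmine, with a median of 0.23 (4, with a median of 0.40, without DTR_PYR 4 to 6). Under PBS 42.9% of all genes were called in either direction and 21.3% as higher. With 13 genes the count says little beside these shares. The largest was Myc, a transcription factor that drives growth and ribosome production, at 159.7 ± 81.2 CPM in DTR_PBS and 7.72 ± 2.69 CPM in WT_PBS hearts (SD, n = 6 each), a rise of 4.40 (SE 0.59, adjusted p = 1.58e-05). The polymerase subunits Cd3eap and Twistnb rose by 0.82 (SE 0.25, adjusted p = 0.00925) and 1.17 (SE 0.40, adjusted p = 0.0204). Polr1a, the largest subunit, averaged 90.6 ± 23.3 CPM in DTR_PBS and 92.9 ± 5.8 CPM in WT_PBS hearts, a difference of -0.04 (SE 0.14, adjusted p = 0.853).

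Of 20 other translation genes with TOP messenger RNAs that are reported here, 6 rose under PBS, with a median of 0.18, and 2 rose under pyridostigmine, with a median of 0.19 (7, with a median of 0.38, without DTR_PYR 4 to 6). The counts with all libraries were near the shares of all genes called higher. Pabpc1, the poly(A) binding protein, rose by 1.44 (SE 0.28, adjusted p = 2.69e-04), Eif3a, a subunit of an initiation factor, by 1.21 (SE 0.24, adjusted p = 3.41e-04), and Eef1g, a subunit of an elongation factor, by 0.76 (SE 0.17, adjusted p = 0.00106). Gnb2l1, also known as Rack1, a scaffold protein of the small subunit, averaged 627 ± 47 CPM in DTR_PBS and 389 ± 63 CPM in WT_PBS hearts and rose by 0.69 (SE 0.18, adjusted p = 0.00363). Fau, a small subunit protein fused to a ubiquitin-like protein, averaged 131 ± 17 CPM in DTR_PBS and 112 ± 25 CPM in WT_PBS hearts, a difference of 0.22 (SE 0.17, adjusted p = 0.308).

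Of 17 genes of mTORC1 signalling and its brakes, 2 rose and 4 fell under PBS, with a median of -0.18, and 0 rose and 1 fell under pyridostigmine, with a median of -0.04 (2 and 3, with a median of -0.15, without DTR_PYR 4 to 6). The 6 called under PBS were a smaller share than the 42.9% of all genes, so the genes named here are single genes and not a change of the group. Sesn1, a brake on mTORC1, averaged 50.3 ± 6.5 CPM in DTR_PBS and 114 ± 8 CPM in WT_PBS hearts and fell by 1.19 (SE 0.22, adjusted p = 1.54e-04), while its stress-induced relative Sesn2 averaged 19.1 ± 2.5 CPM in DTR_PBS and 7.92 ± 1.51 CPM in WT_PBS hearts and rose by 1.27 (SE 0.27, adjusted p = 5.90e-04). Tsc2, a further brake, fell by 0.91 under PBS (SE 0.19, adjusted p = 5.71e-04) and by 0.64 under pyridostigmine (SE 0.19, adjusted p = 0.0322). Messenger RNA levels of these genes say nothing direct of the activity of the pathway.

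**Figure D5:**
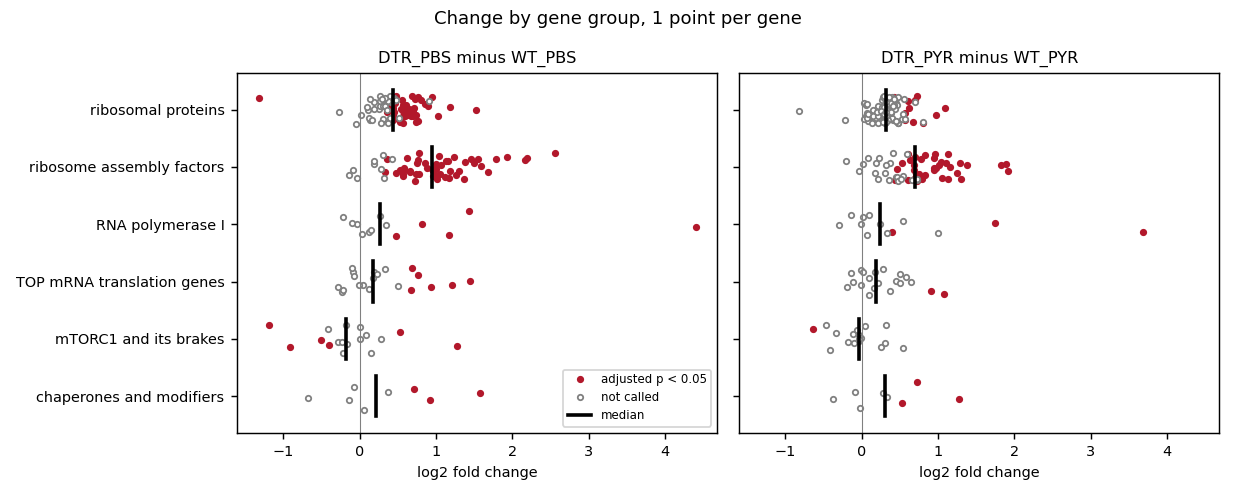
Log2 fold change of each gene in 6 gene groups, DTR_PBS minus WT_PBS on the left and DTR_PYR minus WT_PYR on the right; filled red points have an adjusted p under 0.05 and black bars are medians. Ribosome assembly factors have medians of 0.95 and 0.70, against 0.44 and 0.32 for the ribosomal proteins.

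Markers of other cells moved with injury beside the ribosomal protein genes. Calls on markers use all DTR_PYR libraries and were not refitted without DTR_PYR 4 to 6. They stand beside 21.3% of all genes called higher and 21.6% lower under PBS, and 8.06% and 4.17% under pyridostigmine. A smaller count of markers under pyridostigmine is therefore not read as an effect of the drug. The summed level of 10 macrophage markers was 585 to 2217 CPM in DTR_PBS and 203 to 291 CPM in WT_PBS hearts, and all 10 rose in both injury comparisons. That of 10 fibroblast markers was 2864 to 6803 CPM in DTR_PBS and 862 to 1149 CPM in WT_PBS hearts, and 6 of 10 rose in both. Proliferating cell markers summed to 58.0 to 297 CPM in DTR_PBS and 13.7 to 51.0 CPM in WT_PBS hearts, with 9 of 10 higher under PBS and 5 of 10 under pyridostigmine. Endothelial markers summed to 808 to 1040 CPM in DTR_PBS and 1411 to 1614 CPM in WT_PBS hearts, with 7 of 10 lower under PBS and 4 of 10 under pyridostigmine. In DTR_PYR 4 to 6, whose ribosomal protein share was near that of WT hearts, the macrophage markers summed to 276 to 313 CPM and the cardiomyocyte markers to 80587 to 90985 CPM, against 170 to 303 CPM and 96675 to 108798 CPM in WT_PYR hearts. The fibroblast markers summed to 1262 to 1546 CPM in DTR_PYR 4 to 6, against 758 to 1284 CPM in WT_PYR hearts. For the endothelial markers it was 1171 to 1358 CPM, against 1399 to 1659 CPM in WT_PYR hearts. For the proliferating cell markers it was 39.9 to 47.8 CPM, against 14.7 to 62.0 CPM in WT_PYR hearts. No macrophage, fibroblast, proliferating cell or endothelial marker was at 0 in any group. Of the remaining lists, 1 of 4 tested atrial markers rose and 1 fell in each injury comparison, with Bmp10 at 0 in DTR_PBS, DTR_PYR and WT_PBS hearts and Sln at 0 in DTR_PBS hearts. Red cell markers summed to 17.6 to 209 CPM in DTR_PBS and 52.5 to 743 CPM in WT_PBS hearts, with 4 of 5 lower under PBS and 0 called under pyridostigmine, and of 3 skeletal muscle markers tested 1 rose and 1 fell under PBS and 0 were called under pyridostigmine. The summed atrial markers were 308 to 806 CPM in DTR_PBS and 78.0 to 149 CPM in WT_PBS hearts. The summed skeletal muscle markers were 273 to 1705 CPM in DTR_PBS and 1837 to 3367 CPM in WT_PBS hearts, and neither pair of ranges overlapped. A sum can rest on few genes of its list, so these are not read as amounts of atrial or skeletal muscle tissue. The part of any of these cells in the ribosomal protein values was not tested.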

How the data were processed

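The authors deposited counts of reads per gene, made from single-end, not strand-specific libraries of polyadenylated RNA per the labels' protocols. Per the submitters' processing notes, HTSeq, TopHat2 2.1.1, TopHat, Bowtie2, edgeR and DESeq were used with the build GRCm38, without a stated role for each. Without strand, counts of overlapping antisense genes are uncertain, and so are those of near-identical copies. Genes above 0.5 CPM in at least 6 libraries (15456 of 46078) were TMM-scaled (a trimmed mean of log ratios) and fitted in edgeR 4.0.16 (glmQLFit, glmQLFTest; R 4.3.3), with 1 coefficient for each of 4 groups of 6 libraries. All 24 libraries entered the fit, and calls were made at an adjusted p (Benjamini-Hochberg, all genes tested) under 0.05. The 5 contrasts were the injury under each treatment, the drug in injured and in uninjured hearts, and the interaction. CPM values are TMM-scaled. Paralog ratios are log2 of (count + 0.5) ratios, with exact permutation tests. Lengths came from GENCODE vM21. The edgeR fit of injury under PBS was tested on simulated data, with far fewer genes changed than were called here. The other steps were not tested in this way. All 81 tested members were also in the authors' filtered table of 15140 genes. Genes were named by a rule: the paralog pairs, the stalk genes and Rpsa, Rpl5 and Rpl11, the 6 largest rises and falls under PBS, the 4 smallest p in other comparisons with calls, the 3 most and least abundant per length, and up to 3 genes by p from each list. Rpl4, Rpl15, Fau, Gnb2l1, Polr1a, Hbegf and the other genes listed as called under pyridostigmine were named after their values were seen. The members and lists were chosen with earlier results of these data known. Alternatives were total-count and DESeq2 (1.42.0) scaling, the DESeq2 test, limma (3.58.1) voom, other filters, 2-group fits, the tag letter as a covariate and leaving out libraries. A gene of the translation list is not reported here and was left out of its counts after the data were seen.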

Additional observations from a re-analysis of the deposited data

Results flagged for a closer look

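Of 128 groups of 6 libraries checked, 7 held 1 library far from the other 5, judged by its gap to the nearest other library as a share of the group's range, against Dixon's critical value for 6 samples. That value is set so that about 1 in 20 groups of independent values passes by chance. The 128 groups come from the same libraries, so that rate is not a measure of how many of them would pass. Every flagged CPM value was a high one and lay in WT_PBS 1 or WT_PYR 1. Rpl22 had 111 CPM in WT_PBS 1, against 89.5 to 97.0 CPM in the other WT_PBS libraries. Rpl3 had 68.3 CPM in WT_PBS 1, against 46.1 to 52.8 CPM in the others, still below every DTR_PBS library. Rps4x had 215 CPM in WT_PBS 1, against 143 to 166 CPM in the others. Rpl39 had 59.3 CPM in WT_PYR 1, against 19.6 to 33.4 CPM in the others, Rps15a had 77.5 CPM there, against 28.1 to 38.7 CPM, and Rpsa had 216 CPM there, against 106 to 139 CPM. The log2 ratio of Rps27l to Rps27 was -1.41 in DTR_PYR 1, against -1.16 to -1.04 in the other DTR_PYR libraries. No cause was tested.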

How the results depend on the processing

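Without strand, and with the treatment of reads that fit several copies unknown, levels of single genes are uncertain, and the shallowest library held 1877914 counts. No paired analysis was possible because the labels give no replicate numbers, which here follow accession order. The number of members called for injury under PBS was 45, beside 6634 of all genes. It was 78 with total-count scaling, beside 7461 of all genes, and 32 to 46 when each library was left out. For injury under pyridostigmine the number of members called was 11, beside 1891 of all genes, and the calls over all genes, in brackets, moved too. It was 30 (2275) with total-count scaling, 17 (2582) with DESeq2 and 6 (1220) with only the groups compared. With the tag letter as a covariate it was 25 (2920), and without DTR_PYR 4, 5 and 6, chosen after seeing the data, 51 (5043). When each library was left out it was 5 to 24. It was 7 (1095) without WT_PYR 4, and 6 (748), 5 (756) and 6 (1112) without DTR_PYR 1, 2 and 3, each in turn. Leaving out DTR_PYR 4, 5 and 6, each in turn, it was 22 (2707), 24 (2482) and 21 (2368). For pyridostigmine in injured hearts the number of members called was 2 with limma voom, beside 1765 of all genes, and 0 to 7 when each library was left out. The 7 were without DTR_PYR 2, beside 2395 of all genes. Without DTR_PYR 4, 5 and 6 the number was 0, beside 0 of all genes, and the median member turned to 0.11. With total-count scaling the median over all genes was 0.39 under PBS and 0.19 under pyridostigmine, that of the members 0.81 and 0.52, and Rps4l under PBS turned to 0.069. As a difference of medians, the Rpl3l to Rpl3 ratio was -2.66 under PBS and -1.61 under pyridostigmine and Rpl7l1 to Rpl7 was 0.93 under PBS, each with an exact permutation adjusted p of 0.0866, and Rps27l to Rps27 under PBS turned to 0.014. Within letters, without a test, Rpl3l to Rpl3 under pyridostigmine was -3.35 (U) and Rps27l to Rps27 was 0.028 (V). The members' share in WT_PYR without mitochondrial counts was 1.21%. Leaving out each library, Rpl24 ran from -0.28 to 0.36, Rpl22 from -0.037 to 0.062 and Rps4x from -0.0026 to 0.19 under PBS, Rps4x from -0.020 to 0.15 under pyridostigmine, Rps27l to Rps27 from -0.15 to 0.038 under PBS and Rpl22l1 to Rpl22 from -0.26 to 0.14 for the drug in injured hearts. Under pyridostigmine Rpl22l1 to Rpl22 ran from 0.72 to 1.19, Rpl7l1 to Rpl7 from 0.42 to 0.63 and Rps27l to Rps27 from 0.40 to 0.62, each passing once. The cause of these changes was not tested.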
